A study of Homo sapiens with 8 samples.

Results

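The untreated state of PC3 cells in 3D culture was described from the 4 control libraries among the 8 libraries of an RNA-seq study of the splicing complex SF3b. PC3 is a human prostate cancer cell line, long established, that grows without androgen. Per the labels, cells were kept for 72 h in 24-well EZ-BindShut plates, which keep cells from attaching, each well holding 1 mL of medium and 3% serum. The 2 control siRNA libraries came from cells reverse-transfected with a control small interfering RNA (siRNA) and a lipid reagent and held for 72 h. The 2 DMSO libraries came from cells given the solvent dimethyl sulfoxide (DMSO), for a time and at a concentration that the sources used here do not give, and the labels mention no transfection for them. The remaining 4 libraries, SF3B2 siRNA and pladienolide B, were used only where named. Members were chosen by their treatment labels and not by any measured value.

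Prostate glands hold luminal cells, which make secretions in response to androgen and hold the factors FOXA1 and HOXB13, and basal cells, which sit on the basement membrane through integrins and laminins. Carcinomas mostly keep luminal keratins, and some lose androgen signalling and take on mesenchymal or neuroendocrine genes. Interferon-response genes are switched on by factors that include STAT2 and IRF9 after nucleic acids are sensed in a cell, and endoplasmic reticulum (ER) chaperones through ATF6 and XBP1 when unfolded proteins gather there.

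Levels are given in TPM, a share of transcripts scaled for gene length that the authors deposited. Fold changes and list comparisons between the groups rest on counts or CPM, counts scaled to a common library size. Where the groups are set side by side in TPM, the values are a description without a test. The libraries held 51661299 and 57417980 counts with control siRNA and 53156845 and 72983584 with DMSO. The table lists 17010 genes, each with at least 1 read in every library of the series. Mean level over the 4 libraries was at least 1 TPM for 14283 genes, at least 10 TPM for 9169, at least 100 TPM for 1578 and at least 1000 TPM for 131. The 13 mitochondrial-encoded protein genes took 4.20 to 5.76% of all TPM and 84 cytosolic ribosomal protein genes 10.8 to 13.3%. Replicates differed by more than sampling noise in both groups, and nothing in the labels says that they came from separate cultures, so any p-value measures only the spread between these libraries. In both groups the libraries numbered 1 and 2 stood apart in ER chaperones, ATF4 targets, hypoxia genes and interferon genes, and these values are given with the results they touch. In bulk RNA, fewer cells of a kind and less RNA per cell cannot be told apart.

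The most abundant transcripts were those of iron storage, glycolysis, the mitochondrial genome and secreted or cytoskeletal small proteins. FTH1, the ferritin heavy chain that stores iron, stood first at 27282 and 26892 TPM with control siRNA and 25258 and 26112 TPM with DMSO. GAPDH, a glycolytic enzyme, followed at 12838 and 12855 TPM with control siRNA and 12238 and 11119 TPM with DMSO. Both kept nearly the same level in all 4 libraries. MSMP, a secreted microprotein first described in PC3 cells, lay at 4868 TPM in control siRNA library 1, at 8795 TPM in library 2, and at 8686 and 10656 TPM with DMSO. Its level was lowest in 1 control siRNA library and overlapped otherwise. GDF15, a secreted stress-linked cytokine of the TGF-beta family, ranked 13 among protein-coding genes at 4165 and 4667 TPM with control siRNA and 4100 and 5108 TPM with DMSO. ISG15, an interferon-induced protein that is attached to other proteins, ranked 16 and differed more between libraries, as described with its group.

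Among prostate genes the lineage factors were present, and the androgen-induced genes FKBP5 and TMPRSS2 lay far below them. FOXA1, the pioneer factor of luminal cells, lay at 159.7 and 157 TPM with control siRNA and at 182 and 175 TPM with DMSO. The groups did not overlap, with means of 158 ± 1.84 and 178 ± 4.97 TPM (SD, n = 2). By CPM, both control siRNA libraries lay below both DMSO libraries in 17.9% of all genes tested. HOXB13, a homeobox factor that marks the prostate lineage, lay at 129 and 138 TPM with control siRNA and 119 and 124 TPM with DMSO, and SPDEF, an ETS factor of secretory epithelium, ran from 124 to 161 TPM. FKBP5, a chaperone that androgen induces, lay between 4.10 and 5.19 TPM in every library. TMPRSS2, an androgen-induced membrane protease, lay between 12.3 and 14.7 TPM, but its exons overlap those of MX1 on the other strand, so its counts are uncertain. NDRG1, which responds to androgen and also to low oxygen, was far more abundant. It lay at 3017 and 4478 TPM with control siRNA and 3038 and 3840 TPM with DMSO. The median over the 13 listed prostate genes was 19.0 TPM, against 13.9 TPM over all genes tested. Of 22 genes in this list 13 were listed; KLK3, KLK2 and FOLH1 are among the 9 not analysed here.

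Simple-epithelial keratins were abundant, beside junction genes at moderate levels. KRT18 lay at 818 and 731 TPM with control siRNA and 764 and 695 TPM with DMSO, and its partner KRT8 between 621 and 709.9 TPM; these keratins of luminal cells pair into filaments. KRT19 ran from 594 to 724 TPM and KRT7 from 102 to 188 TPM. The tight-junction protein CLDN4 lay at 381 and 391 TPM with control siRNA and 309 and 331 TPM with DMSO. CDH1, the epithelial cadherin, was less abundant, at 40.0 and 52.2 TPM with control siRNA and 29.7 and 34.7 TPM with DMSO. CTNNA1, the alpha-catenin that ties cadherins to actin and is known to be deleted in PC3, lay between 0.702 and 0.778 TPM in all 4 libraries, while its partners CTNNB1 and CTNND1 lay at 100.1 to 122 TPM and 69.8 to 79.1 TPM. EPCAM, an epithelial surface protein, ran from 43.5 to 62.9 TPM.

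Genes of the basal and mesenchymal states were also present, though unevenly. ITGB4 and LAMA3, parts of the hemidesmosome and its ligand, lay at 237 to 332 TPM and 261 to 299 TPM. SFN, an epithelial 14-3-3 protein, lay at 201 and 199.8 TPM with control siRNA and 154 and 177 TPM with DMSO. Basal keratins were scarce by comparison, with KRT15 at 36.5 to 47.8 TPM and KRT16 at 1.16 to 2.22 TPM, and TP63, KRT5 and KRT14 are not analysed here. VIM, the mesenchymal intermediate filament, lay at 1904 and 1723 TPM with control siRNA and 1793 and 1206 TPM with DMSO, above every keratin of the lists. CDH2, the neural cadherin, lay at 40.4 to 46.7 TPM, close to CDH1. TWIST1 was the most abundant of the transition factors at 30.9 to 47.9 TPM, followed by SNAI2 at 9.88 to 14.4 TPM, ZEB1 at 8.68 to 10.6 TPM, SNAI1 at 4.29 to 7.21 TPM and ZEB2 at 0.649 to 0.840 TPM. The ranges of SNAI2 and ZEB1 overlapped, and those of TWIST1 and ZEB2 lay apart from both. Of 20 neuroendocrine genes 7 were listed, and apart from ENO2, a glycolytic enolase at 565 to 927 TPM, and the tubulin TUBB3 at 56.7 to 64.7 TPM, they lay at or under 20.6 TPM. SYP, a vesicle protein that defines the neuroendocrine state, lay between 0.958 and 1.60 TPM, and CHGA is not analysed here.

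**Figure D1:**
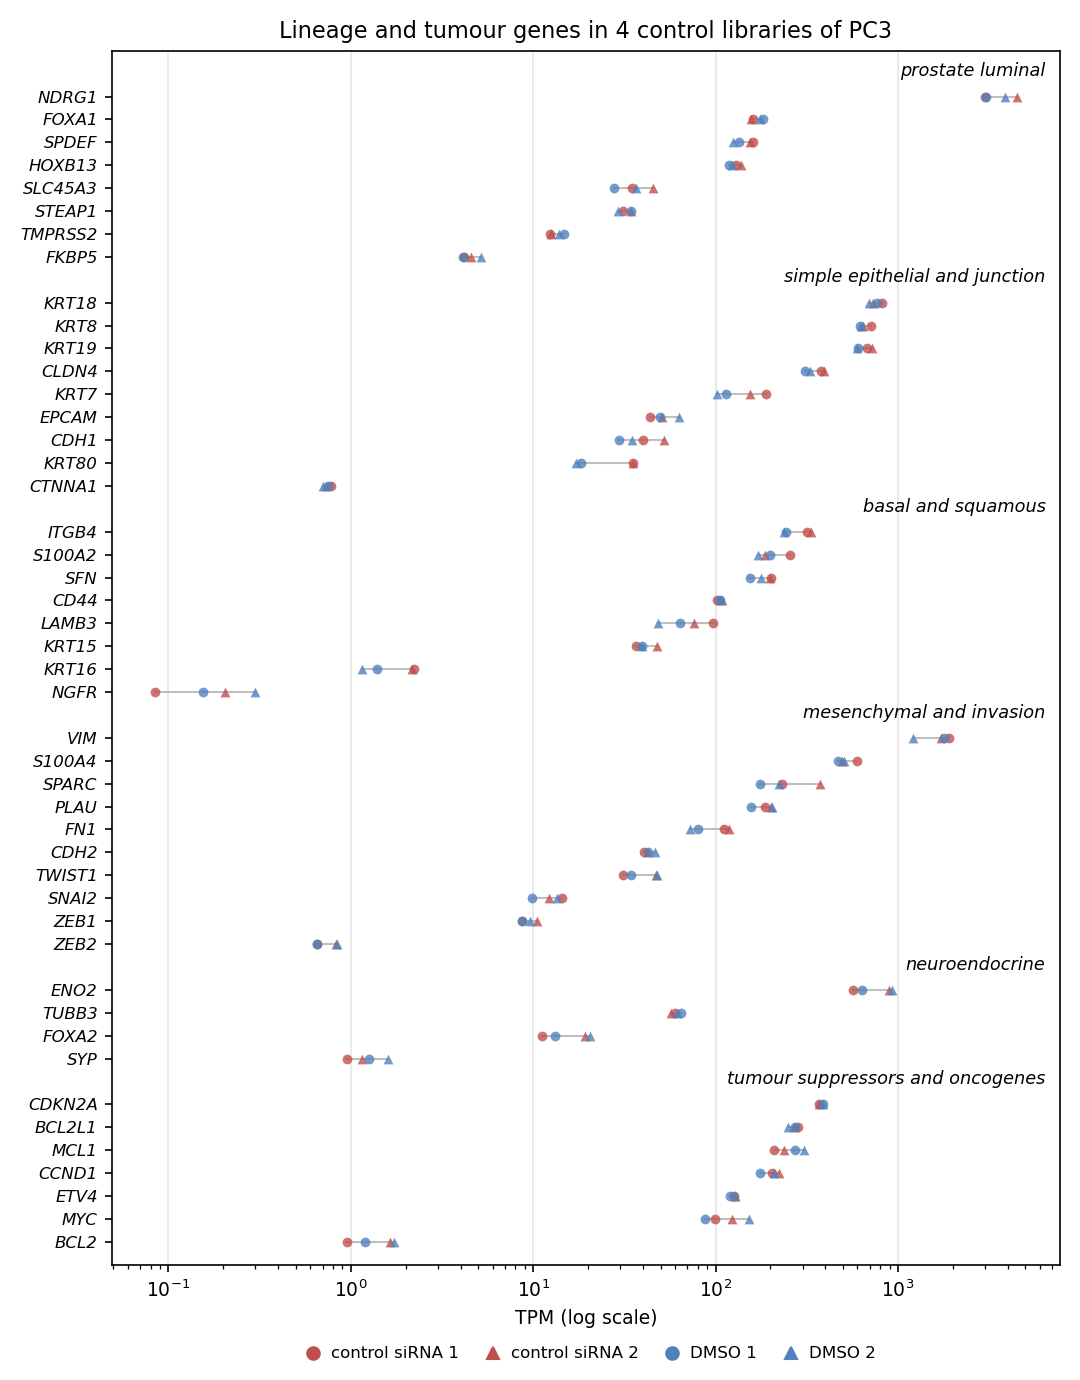
Levels of lineage and tumour genes in TPM (log axis) in each of the 4 control libraries, red for control siRNA and blue for DMSO, circles for library 1 and triangles for library 2, with a grey line over the range. VIM and the simple keratins sit toward the right, FKBP5 and CTNNA1 toward the left, and the groups of KRT80 stand clearly apart, at 35.1 and 35.3 TPM against 18.2 and 17.1 TPM.

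Of the tumour suppressors, the cell cycle inhibitors CDKN2A and CDKN2B were the most abundant. CDKN2A, which encodes p16 and p14ARF, lay at 367.8 and 368 TPM with control siRNA and 389.7 and 388 TPM with DMSO, the highest of the 28 genes in this list. CDKN2B, the neighbouring inhibitor p15, ran from 184 to 269.8 TPM. Among oncogenes, BCL2L1 and MCL1, which block cell death, lay at 249.9 to 283 TPM and 208 to 304 TPM, against 0.952 to 1.72 TPM for their relative BCL2. CCND1, a G1 cyclin, lay at 175 to 222 TPM, and MYC, the growth regulator, at 99.2 and 123 TPM with control siRNA and 87.3 and 152 TPM with DMSO. The ETS factor ETV4 ran from 119.9 to 129 TPM, above its relatives ETV5, at 40.1 to 51.1 TPM, and ETV1, at 21.1 to 30.3 TPM.

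Among receptor tyrosine kinases, EPHA2, DDR1 and EPHB4 were the most abundant of the 17 listed. EPHA2, a receptor for ephrins, lay at 169 and 172 TPM with control siRNA and at 136 and 142 TPM with DMSO. DDR1, a collagen receptor, lay at 141 and 142 TPM with control siRNA and 114 and 108 TPM with DMSO. MET, the receptor of hepatocyte growth factor, went the other way, at 50.9 and 53.1 TPM with control siRNA and 87.1 and 86.7 TPM with DMSO. EGFR, the epidermal growth factor receptor, lay at 40.4 and 45.1 TPM with control siRNA and 34.7 and 36.0 TPM with DMSO. In all 4 of these genes the groups did not overlap in TPM. By CPM, both control siRNA libraries lay above both DMSO libraries in 17.1% of all genes tested and below both in 17.9%. ERBB2 ran from 16.5 to 22.2 TPM, whereas ERBB3 ran from 3.14 to 4.46 TPM and IGF1R from 2.14 to 3.36 TPM. Of 32 receptors in the list 17 were listed.

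The ligands were led by GDF15, then by FST, which binds activins, at 316 to 351 TPM and by VEGFA, the vascular growth factor, at 252 to 317 TPM. TGFB1 ran from 86.4 to 93.3 TPM. Ligands of EGFR were headed by AREG, at 79.4 and 43.1 TPM with control siRNA and 50.4 and 35.7 TPM with DMSO, and TGFA, at 27.4 and 39.3 TPM with control siRNA and 27.3 and 39.7 TPM with DMSO. AREG was higher in library 1 and TGFA in library 2 of both groups, and neither separated the groups. EGF itself lay at 0.110 to 0.454 TPM. HGF, the ligand of MET, lay at 7.29 and 9.198 TPM with control siRNA and 8.13 and 12.8 TPM with DMSO. DKK1, a secreted Wnt inhibitor, was the most abundant Wnt gene at 910.0 and 1224 TPM with control siRNA and 819 and 1272 TPM with DMSO, while the Wnt target AXIN2 ran from 4.54 to 6.62 TPM. CCN1, a matricellular target of YAP, lay at 264 to 398 TPM. CCN2, another, lay at 44.04 and 44.4 TPM with control siRNA and 71.4 and 58.5 TPM with DMSO. Of the NF-kB list, NFKBIA, the inhibitor of NF-kB, ran from 119 to 171 TPM, LIF from 77.9 to 113 TPM and CXCL8, a chemokine, from 18.4 to 39.6 TPM, and IL6 lay at 3.01 to 4.06 TPM.

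**Figure D2:**
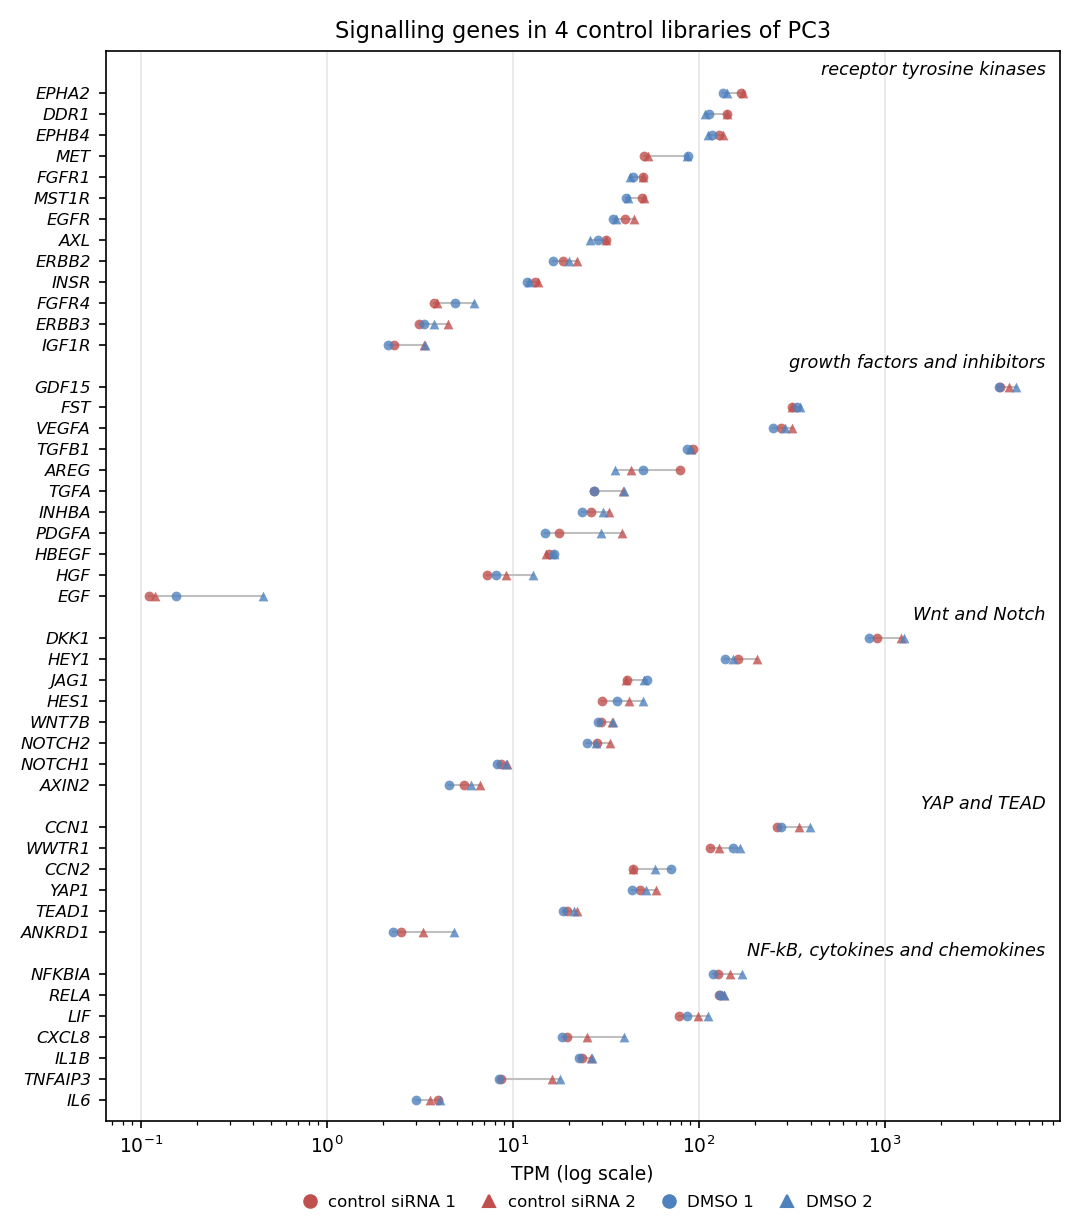
Levels of receptor, ligand and pathway genes in TPM (log axis) in each of the 4 control libraries, red for control siRNA and blue for DMSO, circles for library 1 and triangles for library 2, with a grey line over the range. EPHA2 heads the receptors and GDF15 the ligands, and the blue points of MET lie clear to the right of its red ones.

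Collagen VI and the laminin-binding integrins were the leading matrix genes. COL6A1 lay at 2007 and 2003 TPM with control siRNA and at 1605 and 1669 TPM with DMSO, and COL6A2 between 1583 and 1900.0 TPM. ITGA3, a laminin-binding integrin chain, ran from 607 to 819 TPM and ITGB1, the shared beta chain, from 486 to 585 TPM. COL1A1, the main fibrillar collagen of connective tissue, lay at only 19.3 to 29.0 TPM. Immediate early genes split, with FOSL1 at 421 to 571 TPM, JUND at 255 to 296 TPM and FOS at 5.18 to 11.9 TPM, while EGR1 lay at 0.409 to 0.570 TPM. Genes of mitosis were low. MKI67, the proliferation antigen, lay at 0.949 and 1.35 TPM with control siRNA and 1.16 and 3.49 TPM with DMSO, and CDK1, the mitotic kinase, at 8.34 and 9.94 TPM with control siRNA and 11.8 and 25.8 TPM with DMSO. The median over 34 mitosis genes was 4.55 TPM, against 13.9 TPM over all 16028 genes tested.

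Most markers of other cell types are not analysed here, and a few of those listed lay above 10 TPM. Of 10 blood markers 5 were listed, and PTPRC is not among them; apart from CD68, a lysosomal protein at 118 to 144 TPM, the others lay between 0.127 and 4.20 TPM. Of 9 endothelial markers the adhesion proteins PECAM1 and ESAM were listed, at 16.2 to 21.8 TPM and 9.74 to 13.6 TPM. Of 12 fibroblast and muscle markers 4 were listed, from LUM, a proteoglycan, at 0.256 to 0.335 TPM to COL1A1, given above. Of 10 liver and nerve markers 3 were listed: SERPINA1, a protease inhibitor secreted by liver, at 18.4 to 39.1 TPM, MBP, a myelin protein, at 38.5 to 41.2 TPM, and SYT1, a synaptic vesicle protein, at 2.87 to 3.62 TPM. The groups overlapped for PECAM1, LUM and SERPINA1, and CD68 lay at 123 and 118 TPM with control siRNA against 144 and 135 TPM with DMSO.

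Control siRNA was then compared with DMSO to see how far transfection and solvent controls of one cell line differ. Transfection, its reagent and the solvent differ together between the groups and cannot be told apart, and whether the length of treatment also differed is unknown. By edgeR's quasi-likelihood test with Benjamini-Hochberg adjustment 0 of 16028 genes were called (0.0%), the smallest adjusted p being 0.754. At an unadjusted p under 0.05 there were 923 genes, 489 higher (3.05%) and 434 lower (2.71%) with control siRNA. DESeq2 called 47 genes, 32 higher (0.2%) and 15 lower (0.0936%) with control siRNA. Both control siRNA libraries lay above both DMSO libraries for 2745 genes (17.1%) and below both for 2876 genes (17.9%). A call count therefore depended on the tool and on the model. With the library numbers as a replicate block, edgeR called 1666 genes, the 20 named below among them. The labels do not state that the numbers mark pairs, and the block with SF3B2 siRNA added gave 0 calls. No difference below passed the edgeR test without the block. DESeq2 called 17 of the 20 genes of smallest edgeR p named below, not all of them marked as such. An exact permutation test of a single gene cannot reach 0.05 with groups of 2, and none was run.

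Among the genes of smallest p, those higher with control siRNA include a keratin, a membrane metalloprotease and a hyaluronan synthase. KRT80, an epithelial keratin at chr12:52168996-52192014 (GRCh38, minus strand), lay at 64.2 and 61.4 CPM with control siRNA and at 32.9 and 29.0 CPM with DMSO. The groups stood well apart, with means of 62.8 ± 1.98 and 31.0 ± 2.73 CPM (SD, n = 2) and a log2 fold change of 1.02 ± 0.10 (SE). The adjusted p was 0.754 by edgeR and 4.24e-08 by DESeq2, and ran from 4.24e-08 to 1.0 over the settings tried. ADAM19, a membrane metalloprotease at chr5:157477304-157575775 (minus strand), lay at 196 and 212 CPM with control siRNA and at 87.3 and 109 CPM with DMSO, a log2 fold change of 1.06 ± 0.14 (SE). Its adjusted p was 0.839 by edgeR and 2.48e-07 by DESeq2, which was also the lowest over the settings, the highest being 1.0. HAS2, which makes hyaluronan, lay at 41.0 and 40.8 CPM with control siRNA and 24.0 and 25.97 CPM with DMSO. SEMA7A, a membrane-anchored semaphorin, lay at 106 and 111 CPM with control siRNA and 68.2 and 73.2 CPM with DMSO. The zinc finger gene ZNF469 lay at 120.2 and 141 CPM against 74.7 and 74.2 CPM. TCF7, a transcription factor of the Wnt pathway, lay at 8.87 and 8.95 CPM against 4.18 and 4.94 CPM. PHLDA3, MICAL2 and KIAA0754 completed the 10 genes of smallest p in this direction, at 1.45-fold to 1.75-fold. Exons of ADAM19 overlap those of CYFIP2, and exons of TCF7 those of SKP1, on the other strand, so their counts are less certain.

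ANKHD1 had the smallest p of all, but it shares exons with the read-through gene ANKHD1-EIF4EBP3, and the pair lay on opposite sides of the comparison. ANKHD1 lay at 169 and 157 CPM with control siRNA and 75.0 and 83.3 CPM with DMSO. ANKHD1-EIF4EBP3 lay at 44.9 and 58.4 CPM with control siRNA and 106 and 103 CPM with DMSO. Summed, a quantity formed after their values were seen, the pair held 214 and 216 CPM with control siRNA and 181 and 186 CPM with DMSO, a log2 ratio of means of 0.23. The split of reads between these genes is uncertain, with the counting program not given in the sources used here.

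Among the genes lower with control siRNA was a receptor of the list above, MET. At chr7:116672196-116798377 (plus strand) it lay at 158 and 156 CPM with control siRNA and at 266 and 251 CPM with DMSO. The replicates nearly coincided and the groups stood apart, with a log2 fold change of -0.72 ± 0.10 (SE). The adjusted p was 0.839 by edgeR and 3.20e-05 by DESeq2, which was the lowest over the settings tried, the highest being 1.0. PTPMT1, a mitochondrial phosphatase, lay at 13.5 and 12.8 CPM with control siRNA and 26.4 and 25.7 CPM with DMSO, and its exons overlap those of 3 other listed genes. BANF1, which binds DNA and the nuclear envelope, lay at 53.1 and 51.2 CPM with control siRNA and 83.0 and 84.6 CPM with DMSO. LRP8, a receptor for reelin and apolipoprotein E, lay at 22.6 and 20.6 CPM against 33.0 and 33.5 CPM. BOD1, TVP23C-CDRT4, SHISA3, PDCD6 and RABGGTB completed the set, at 1.40-fold to 1.68-fold.

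**Figure D3:**
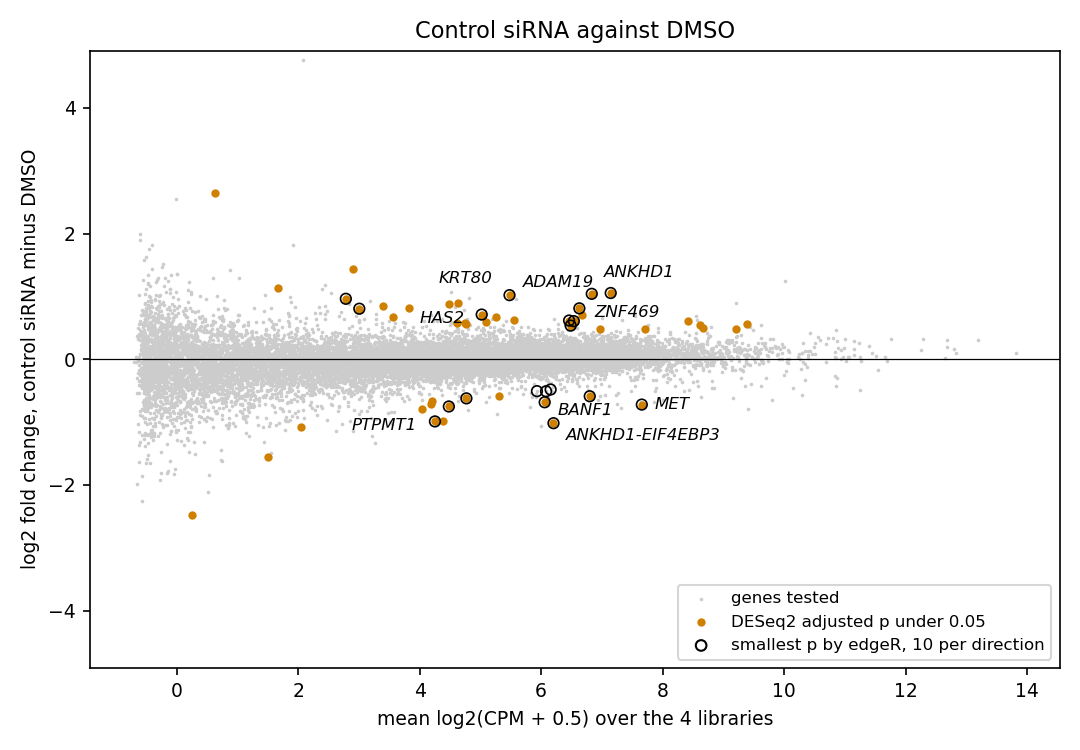
Log2 fold change of control siRNA minus DMSO (vertical axis) against the mean of log2(CPM + 0.5) over the 4 libraries for the 16028 genes tested, grey. Orange marks the 47 genes called by DESeq2 and black rings the 10 genes of smallest edgeR p in each direction. KRT80, ADAM19 and ANKHD1 lie near 1 and MET near -0.72.

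Structural epithelial and matrix genes lay mostly higher with control siRNA. Of 29 integrin, laminin and collagen genes 26 had a positive log2 fold change, 18 had both control siRNA libraries above both DMSO libraries and none had both below, against 17.1% and 17.9% of all genes tested. Their median was 0.24 against 0.00 over all genes tested, and it ran from 0.18 to 0.26 over the settings tried. COL5A1, a fibrillar collagen and the member DESeq2 called, lay at 257 and 239 CPM with control siRNA and 182 and 172 CPM with DMSO (DESeq2 adjusted p = 0.0494, 0.000310 to 1.0 over the settings, edgeR 0.839). ITGB4 lay at 849 and 841 CPM with control siRNA and 644 and 586 CPM with DMSO. ITGAV, a chain of receptors for fibronectin and vitronectin, lay at 64.0 and 63.8 CPM against 51.0 and 51.3 CPM. FN1, fibronectin, lay at 422 and 424 CPM against 299.5 and 254 CPM, and was called by DESeq2 (adjusted p = 0.0177, 0.000315 to 1.0 over the settings, edgeR 0.839). Of 13 basal and squamous genes 12 were positive, with a median of 0.31 that was 0.15 without DMSO library 2. Among 28 simple-epithelial and junction genes 23 were positive. Their median of 0.11 was 0.07 without control siRNA library 2 and 0.05 by library size alone. In 10 of the 28 both control siRNA libraries lay above both DMSO libraries and in 4 below, against 17.1% and 17.9% of all genes tested. DESeq2 called KRT80 and KRT7 higher and the tight-junction gene CLDN1 lower. KRT7 lay at 146 and 114 CPM with control siRNA and 86.9 and 72.9 CPM with DMSO. CLDN1 lay at 13.3 and 14.4 CPM with control siRNA and 20.6 and 25.0 CPM with DMSO. Of 17 receptor tyrosine kinases 13 were positive and 8 had both control siRNA libraries above, against 17.1% of all genes, while MET and FGFR4 had both below, against 17.9%.

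Interferon-response genes lay lower with control siRNA in all 33 members tested, and they also differed within each group. The median log2 fold change was -0.46, with both control siRNA libraries below both DMSO libraries for 18 of 33 genes, against 17.9% of all genes tested. The edgeR test called 0 of them, the lowest adjusted p being 0.839. The level was lowest in control siRNA library 1 for 33 of 33 genes and highest in DMSO library 2 for 32 of 33. Over all 16028 genes tested, these counts were 4213 and 4677. Measured against each gene's mean over the libraries on the log2 scale, the list's median was -0.50 and 0.02 in the control siRNA libraries and 0.08 and 0.44 in the DMSO libraries. Control siRNA library 2 and DMSO library 1 thus lay close together, whereas within a group the median log2 ratio of library 1 to library 2 was -0.53 with control siRNA and -0.32 with DMSO. The median of the contrast was -0.27 without control siRNA library 1 and -0.32 without DMSO library 2, and -0.74 without control siRNA library 2.

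ISG15, at chr1:1013497-1014540 (plus strand), lay at 809 and 1160 CPM with control siRNA and 1119 and 1577 CPM with DMSO. IFI27, a mitochondrial interferon-induced protein, lay at 29.9 and 63.6 CPM with control siRNA and 63.5 and 133 CPM with DMSO. BST2, which tethers budding viruses, lay at 65.6 and 139 CPM against 128 and 245 CPM. In these 3 genes the groups overlapped, and library 2 was higher in each group. IFI35 and SAMD9 had groups that stood apart, at 37.8 and 47.8 CPM against 60.2 and 64.7 CPM for IFI35 and 137 and 164 CPM against 207 and 219 CPM for SAMD9.

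The promoters of this group are shown because its members varied together between the libraries. Interferon factors are known to bind the interferon-stimulated response element, searched here as GAAANNGAAA on both strands in the 250 bases before the RefSeq start. It was found for 15 of the 25 members with a RefSeq promoter (GRCh38.p14), against 839 of all 27305 promoters (3.07%) and 278 of the 11757 promoters of tested genes (2.36%). A match describes letters in this window and is not a measured site. The list holds genes known to respond to interferon, so a high share of matches was likely beforehand. A link of the motif to the library differences was not tested. Below, capitals mark the matches on either strand (a match on the opposite strand reads as its reverse complement), and adjoining or overlapping matches run together. The windows lie at chr1:1013364-1013419 (plus) for ISG15, chr10:89392487-89392549 (plus) for IFIT1, chr14:94110608-94110670 (plus) for IFI27 and chr19:17405725-17405780 (minus) for BST2, each read in the direction of its gene.
ISG15: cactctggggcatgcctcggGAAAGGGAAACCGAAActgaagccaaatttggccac
IFIT1: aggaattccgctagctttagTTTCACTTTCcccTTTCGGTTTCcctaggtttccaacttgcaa
IFI27: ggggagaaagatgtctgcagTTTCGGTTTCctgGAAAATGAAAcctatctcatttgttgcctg
BST2: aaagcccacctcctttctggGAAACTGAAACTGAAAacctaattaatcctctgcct

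Mitosis genes lay lower with control siRNA in all 34 members tested, and this rested mainly on 1 DMSO library. The median log2 fold change was -0.55, both control siRNA libraries lay below both DMSO libraries for 22 of 34 genes, against 17.9% of all genes tested, and edgeR called none, with a lowest adjusted p of 0.839. DMSO library 2 was the highest of the 4 for 33 of 34 genes, against 4677 of all 16028 genes tested. Against each gene's mean the list's median was -0.27 and -0.26 in the control siRNA libraries, -0.03 in DMSO library 1 and 0.54 in DMSO library 2. The median of the contrast was -0.22 without DMSO library 2 and -0.82 without DMSO library 1. DMSO library 2 also held the most counts, and the part of depth in this difference was not tested. CDK1 lay at 7.41 and 8.37 CPM with control siRNA and 10.3 and 21.3 CPM with DMSO. NCAPG, a condensin subunit, lay at 1.70 and 1.23 CPM with control siRNA and 2.62 and 5.59 CPM with DMSO. UBE2C, a ubiquitin carrier of mitotic exit and by TPM the most abundant of the list, lay at 37.6 and 37.1 CPM against 42.2 and 53.2 CPM. Of 31 DNA replication genes 26 were negative, with a median of -0.17, and the level was highest in DMSO library 2 for 22. That median was -0.06 without DMSO library 2 and -0.27 without DMSO library 1.

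Heat shock and cytosolic chaperone genes had their highest level in DMSO library 2 for 20 of 21 genes, against 4677 of all 16028 genes tested. Their median log2 fold change of -0.23 became 0.02 without that library and -0.45 without DMSO library 1. HSP90AA1, an abundant cytosolic chaperone, lay at 571 and 857 TPM with control siRNA and 808 and 1366 TPM with DMSO. HSPA1A and HSPA1B are near-identical copies, and their counts are uncertain.

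Cholesterol synthesis genes had a positive log2 fold change in 23 of 23, with a small median of 0.14 that rested on single libraries. DMSO library 2 was the lowest for 23 of them and control siRNA library 1 the highest for 20. Over all 16028 genes tested, these counts were 4238 and 4315. The median was 0.02 without DMSO library 2 and 0.009 without control siRNA library 1, and it was 0.29 without DMSO library 1 and 0.27 without control siRNA library 2. In 6 of 23 both control siRNA libraries lay above both DMSO libraries, against 17.1% of all genes. SF3a and SF3b subunits, the complex studied in the treated cells, had a median of -0.07 over 10 genes, which was -0.04 without control siRNA library 2, -0.05 without DMSO library 2 and -0.13 when scaled by library size alone. The 13 genes of the small RNA machinery had one of 0.12, or 0.06 by library size alone, with DICER1, which cuts small RNA precursors, at 10.5 and 13.2 TPM against 7.99 and 10.7 TPM.

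**Figure D4:**
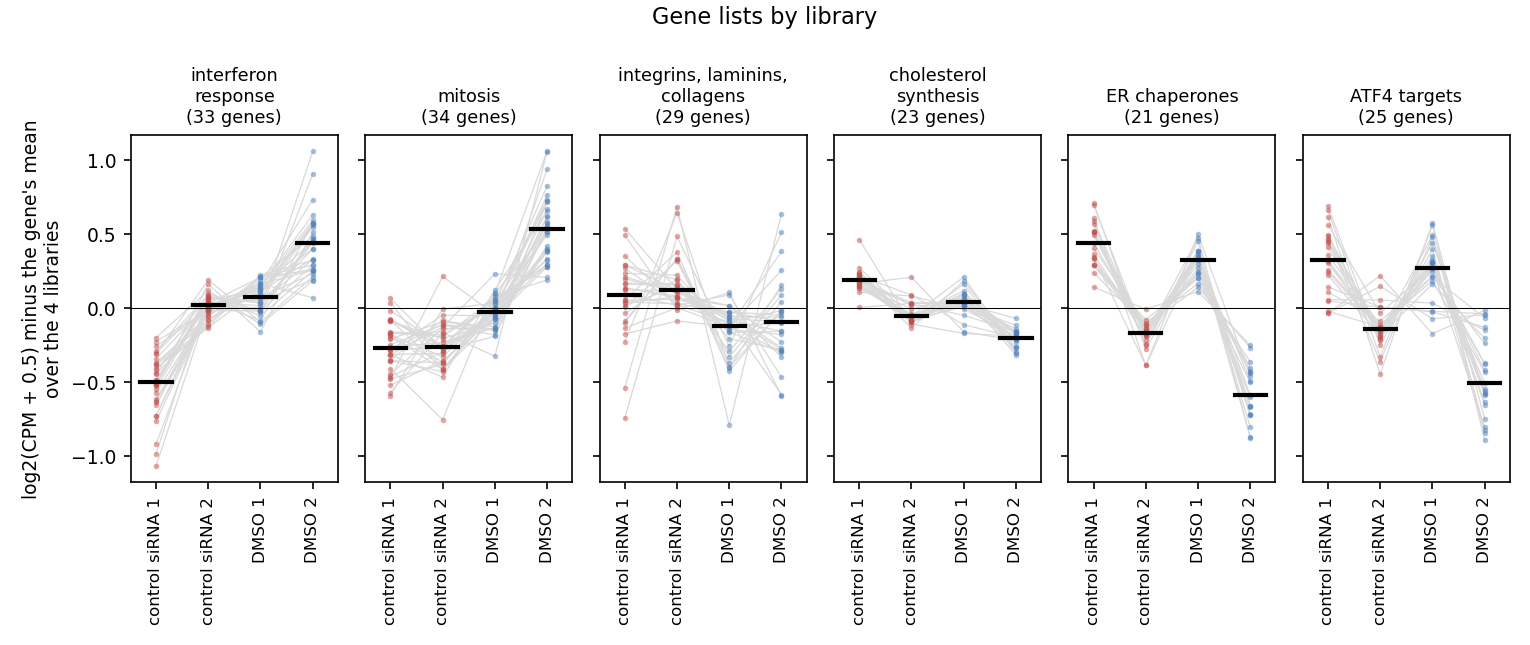
Genes of 6 lists by library, as log2(CPM + 0.5) minus the gene's mean over the 4 libraries, 1 grey line per gene and a black bar at the list's median in each library. Interferon genes run from -0.50 in control siRNA library 1 to 0.44 in DMSO library 2, mitosis genes stand out in DMSO library 2 at 0.54, and ER chaperones and ATF4 targets follow the library number in both groups.

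Libraries numbered 1 and 2 differed in the same direction in both groups for several gene lists. In 5699 genes (35.6%) library 1 lay above library 2 in both groups, and in 6117 genes (38.2%) below. With at least 1.5-fold in both groups, 230 genes were higher in the libraries numbered 1 (1.43%) and 373 in those numbered 2 (2.33%). These sets were chosen by the values in the control libraries, which are therefore a description. The SF3B2 siRNA libraries took no part in the choice: there 194 of the 230 genes (84.4%) were higher in library 1 and 48 of the 373 (12.9%), against 52.1% of all genes tested. The labels do not say that a number marks a shared culture, day or batch.

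All 21 ER chaperone genes were higher in library 1 of both groups, against 35.6% of all genes tested. In 12 of them the difference was at least 1.5-fold in both groups, against 1.43%. The median log2 ratio of library 1 to library 2 was 0.65 with control siRNA and 0.96 with DMSO. CALR, a lectin chaperone, lay at 2959 CPM in library 1 and 1844 CPM in library 2 with control siRNA, and at 2530 and 1297 CPM with DMSO. HSPA5, the chief chaperone of this compartment, lay at 3269 and 2019 CPM with control siRNA and 2858 and 1441 CPM with DMSO. HYOU1, its exchange factor, lay at 692 and 368 CPM with control siRNA and 558 and 233 CPM with DMSO. In each of them the groups overlapped. Between groups the list's median was 0.21, and it became -0.09 without control siRNA library 1 and -0.12 without DMSO library 2. The groups stood apart in 0 of 21 genes. Of all genes tested, 17.1% had both control siRNA libraries above both DMSO libraries and 17.9% had both below.

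ATF4 targets, which supply amino acids under stress, showed the same order in 23 of 25 genes, against 35.6% of all genes tested. Their medians were 0.47 and 0.82. SLC7A11, the cystine carrier, lay at 131 and 62.6 CPM with control siRNA and 128 and 50.6 CPM with DMSO. CHAC1, which breaks down glutathione, lay at 73.5 and 36.7 CPM with control siRNA and 68.5 and 24.7 CPM with DMSO. SESN2, a stress sensor of the mTOR pathway, lay at 87.5 and 45.4 CPM with control siRNA and 71.5 and 29.96 CPM with DMSO. BHLHA15, a factor of secretory cells, showed the widest such difference by the rule used, at 37.2 and 16.8 CPM with control siRNA and 33.1 and 10.1 CPM with DMSO. Cholesterol genes followed in 21 of 23, with smaller medians of 0.25 and 0.24.

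The other direction, with library 2 higher, held hypoxia and interferon genes, though not these alone. It also held in both groups for 19 of 26 Wnt and Notch genes, 18 of 26 immediate early genes and 15 of 21 heat shock genes. The order held in both groups for 27 of 32 glycolysis and hypoxia genes and for 32 of 33 interferon genes, against 38.2% of all genes tested. The median log2 ratio of library 1 to library 2 in the hypoxia list was -0.33 with control siRNA and -0.185 with DMSO. In the interferon list it was -0.53 and -0.32. A difference of at least 1.5-fold in both groups was held by 5 of 32 hypoxia and 4 of 33 interferon genes, against 2.33% of all genes tested. Most members differed by less, so the genes below are among the widest. ADM, a vasodilator peptide induced by low oxygen, lay at 75.7 and 182 CPM with control siRNA and 63.8 and 184 CPM with DMSO. ANGPTL4, a secreted inhibitor of lipoprotein lipase, lay at 68.5 and 193 CPM with control siRNA and 64.0 and 188 CPM with DMSO. CXCR4, a chemokine receptor, lay at 7.27 and 25.1 CPM with control siRNA and 8.34 and 33.7 CPM with DMSO. IGFBP3, which binds insulin-like growth factors, lay at 68.7 and 186 CPM with control siRNA and 51.1 and 129.6 CPM with DMSO. For ADM and ANGPTL4 the 2 groups agreed closely at each number, while the libraries within a group differed more than 2-fold.

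ER chaperone promoters are shown for the same reason as the interferon ones, and with the same limits. The ER stress response element, to which ATF6 and NF-Y are known to bind, was searched as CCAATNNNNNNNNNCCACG on both strands in the same 250 bases and was found for 7 of the 20 members with a promoter, against 22 of 27305 promoters (0.0806%) and 16 of 11757 tested genes (0.136%). The windows lie at chr9:125241371-125241429 (minus) for HSPA5, chr22:28800583-28800641 (minus) for XBP1, chr19:12938364-12938422 (plus) for CALR and chr22:49918534-49918592 (plus) for CRELD2, read in the direction of the gene (RefSeq, GRCh38.p14). Capitals mark the match, which for CALR and CRELD2 lies on the opposite strand.
HSPA5: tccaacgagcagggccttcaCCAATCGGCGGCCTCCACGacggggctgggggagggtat
XBP1: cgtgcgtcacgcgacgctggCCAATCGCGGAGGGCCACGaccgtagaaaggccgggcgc
CALR: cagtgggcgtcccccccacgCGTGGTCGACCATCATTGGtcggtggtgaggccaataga
CRELD2: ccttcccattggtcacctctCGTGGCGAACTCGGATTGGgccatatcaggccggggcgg

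**Figure D5:**
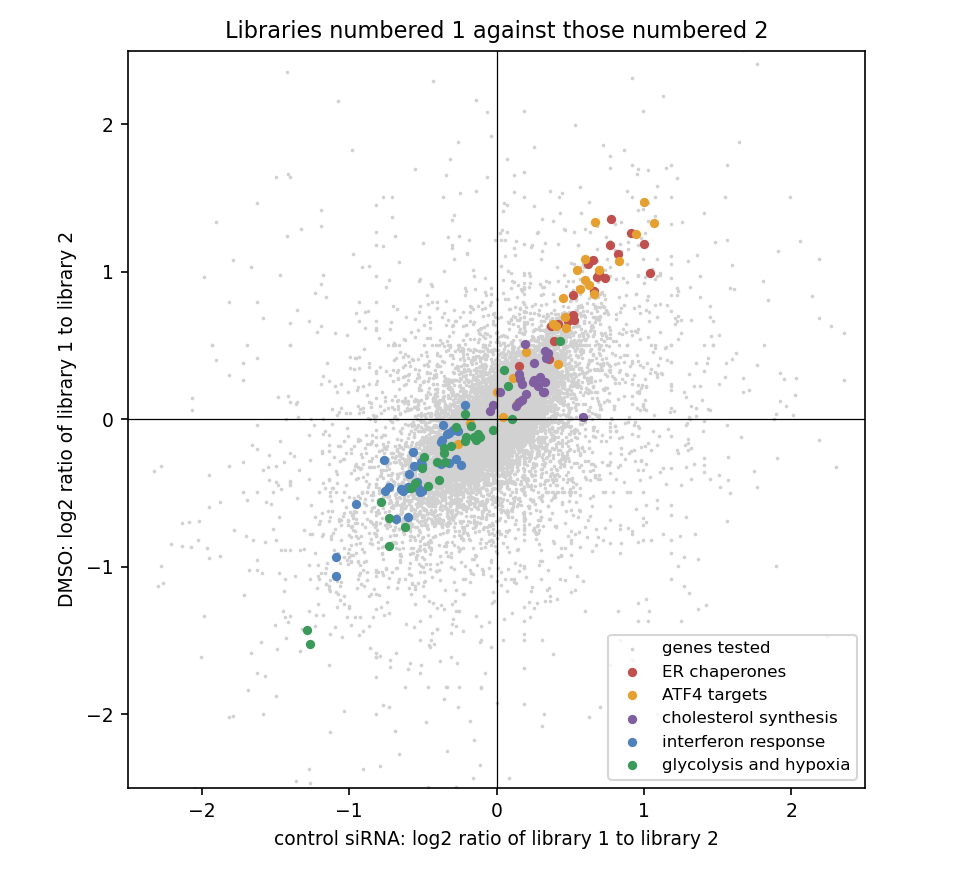
Log2 ratio of library 1 to library 2 with control siRNA (horizontal axis) and with DMSO (vertical axis) for the genes tested, grey, with 5 gene lists in colour; 40 genes lie outside the range of 2.5 shown. ER chaperones and ATF4 targets lie toward the upper right, and interferon and hypoxia genes toward the lower left.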

How the data were processed

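RNA-seq of PC3 cells was analysed from 1 deposited table of the whole series. Per the file headers it holds whole-number read counts per gene and library, which the authors did not normalize, and TPM per library, which the authors computed by a method not given in the sources used here. A further 38 columns of values were not used. Per the submitters' processing notes the tools were edgeR, Bowtie2 2.3.5.1, HISAT2 2.10 and Trimmomatic 0.38, on build GRCh38, without stated roles. The counter, its annotation and its strand setting are unknown, none of them given in the sources used here. Overlapping genes were found in GENCODE 44, and symbols, positions and promoters came from RefSeq (GRCh38.p14).

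The 4 control libraries entered a test of counts by edgeR 4.0.16 under R 4.3.3 (quasi-likelihood F-test, robust, TMM, filterByExpr at a minimum count of 10), two-sided, with 2 residual degrees of freedom and Benjamini-Hochberg adjustment over 16028 genes at 0.05; standard errors were derived from the F statistic. Alternatives were DESeq2 1.42.0, other scalings, no filter, more libraries in the fit, a replicate block and leaving out each library. Levels between genes were compared on TPM only. The fit was checked on simulated data for its recovery of known fold changes. The simulation gave every gene the same replicate spread and held no difference tied to library numbers, unlike these libraries. In 47 genes, SMAD2 and ATF4 among them, the ratio of TPM to counts varied between libraries, and the text gives no TPM for these.

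A total of 30 gene lists with 715 entries, 588 of them matched, served as descriptions. The members and lists were chosen with earlier results of these data known. Beside list genes, the text names from the 20 genes of highest mean TPM, the 10 genes in each direction of smallest p, and the 10 in each direction of widest difference between libraries 1 and 2, the latter 2 with a mean of at least 5 CPM and a RefSeq protein. Some genes of these lists are not reported here.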

Additional observations from a re-analysis of the deposited data

How the results depend on the processing

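The comparison of control siRNA with DMSO gave 0 calls by edgeR with RLE scaling, library size alone, no filter, or 6 or 8 libraries in the fit. DESeq2 gave 47 calls (32 higher, 15 lower). Leaving out each library in turn gave 0 to 21 calls, 0 without control siRNA library 1, 21 without control siRNA library 2, 5 without DMSO library 1 and 2 without DMSO library 2; a lone library is there assumed to vary like the others. The replicate block gave 1666 calls (1040 higher, 626 lower). The labels' numbers are not stated to mark a shared culture, and with 2 pairs they do not show pairing; the within-group log2 ratios correlated across genes at r = 0.428, and genes are not independent replicates. The block with SF3B2 siRNA added, chosen after seeing the data, gave 0 calls. Between numbers, a 2-fold limit left 44 and 82 genes in place of 230 and 373, and deposited TPM gave 592 genes higher in the libraries numbered 2, both chosen after seeing the data. The 20 named genes kept their direction in all 240 refits and passed the threshold in 42 of them. List medians changed sign in 27 of 300 refits, in none of them for interferon, mitosis, cholesterol or matrix lists, though the cholesterol median fell to 0.009 in 1 of them. Library size alone shifted the median of all genes to -0.06. The numbers of genes at each TPM level moved by less than 1.5 times. Low genes rest on fewer reads, such as MKI67 with 284 to 1408 reads per library.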
